A study of Mus musculus with 6 samples.

Results

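R-spondins are secreted proteins that amplify Wnt signalling. They bind the receptors Lgr4, Lgr5 and Lgr6 and the membrane ubiquitin ligases Znrf3 and Rnf43. These ligases remove Frizzled receptors from the cell surface, so clearing the ligases leaves more receptor for Wnt proteins. In the cerebral cortex, Rspo1 is known as a marker of layer 4, the layer that receives most thalamic input. The 9 genes described here are the 4 R-spondins, the 3 Lgr receptors and the 2 ligases, taken from the arrays by the gene name of the probe. Each had 1 probe, so 9 of the 55681 probes on the array were members. All 9 were well above background on 6 of 6 arrays, and all were among the 32702 genes tested. The set was selected on its difference between these same groups, because R-spondins differed in opposite directions. Differences of the members are therefore a description. An adjusted p given for one says only where it stood among all genes, and supports nothing.

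Gene expression was measured on 1 single-colour array per sample in total RNA of primary somatosensory cortex (S1) from C57BL/6 mice at postnatal day 7. Both groups carried floxed Lhx2 alleles (Lhx2f/f), and the sample titles call the control group WT. The 3 samples labelled cKO carried Nex-Cre as well, a Cre recombinase expressed from the Nex (Neurod6) locus in young excitatory neurons of the cortex, and the 3 controls did not. Lhx2 is a LIM-homeodomain transcription factor, and Nex-Cre does not act in glia, vessels or interneurons, which keep the gene. Nothing in the labels ties the samples to separate animals. Errors and p-values therefore cover the spread between these samples alone, which may be technical.

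The targeted gene was read first. The Lhx2 probe (chr2:38224933-38224992 on mm9) gave processed signals of 11880, 12100 and 9654 intensity units in control replicates 1, 2 and 3, and of 21390, 21380 and 28100 in the arrays labelled cKO. It was 2.15-fold higher in the arrays labelled cKO (log2 difference 1.104, SE 0.111, limma adjusted p = 0.067). The sources used here do not give the deleted part of Lhx2, so the probe may lie outside it and check nothing. The reading goes against a loss of transcript, and the directions given for all genes depend on the labels being right. All 8 markers of cortical excitatory neurons passed the filter on dim probes. By sign, 6 were higher and 2 lower in the arrays labelled cKO. Emx1 was lower (log2 difference -0.91), and Fezf2 (0.45) and Tbr1 (0.33) were higher. The list's mean relative to control was 0.035 to 0.14 in the arrays labelled cKO and -0.10 to 0.063 in control. No marker of the list was called (smallest limma adjusted p = 0.24). All 6 arrays lay on 1 slide and came from 1 scan. The share of spots well above background was 86.7% to 91.1%, with no saturated spot. The mean log2 signal of the Y-linked genes Ddx3y, Eif2s3y and Kdm5d was -0.58 and -0.55 in control replicates 1 and 3 and between -7.56 and -6.84 in the other 4 arrays, so Y-linked signal was not balanced between the groups. Across all genes, 3 were called higher and 0 lower at an adjusted p under 0.05, with a median log2 difference of 0.019. At an unadjusted p under 0.05 there were 1021 higher and 1429 lower genes. The split of called genes moved with the processing, to 8 higher and 4 lower under quantile normalization, 14 and 10 under median centring and 42 and 47 under normexp background correction.

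The 60-base probes of the R-spondins carry the findings below. Their first 30 bases are shown 5′ to 3′ on the transcript's strand, to let each measured stretch be recognised:
Rspo1 (chr4:124686270-124686299, plus strand): ccgtggtacacgtcacggatgacctgactt
Rspo2 (chr15:42852757-42852786, minus strand): ccttaggtcagtttgtccttagattatgaa
Rspo3 (chr10:29172960-29172989, minus strand): ggatactactttctaacaaggtgtatctag
Rspo4 (chr2:151700345-151700374, plus strand): gttcacacctctgaaatgctttcttatttc

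These positions are on mm9, as the files give them, and exon and UTR annotation of that build was not used here. Over their whole length, the 6 pairs of R-spondin probes shared at most 9 bases in a row, and at most 24 of 60 bases matched in any ungapped alignment. The probes of Rspo1, Rspo2, Rspo3 and Rspo4 held 41.7%, 38.3%, 35% and 36.7% G and C, against a median of 43.3% over all probes.

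Among the 4 R-spondins, Rspo2 was higher and Rspo1 and Rspo3 were lower in the arrays labelled cKO, by 2.38- to 2.71-fold, and Rspo4 overlapped between the groups. The Rspo2 probe gave 210, 258 and 209 intensity units in control replicates 1, 2 and 3, and 575, 517 and 592 in replicates 1, 2 and 3 labelled cKO. Every array labelled cKO read above every control array. Relative to each array's 75th percentile, the log2 signal of Rspo2 was -2.03 ± 0.15 in control and -0.68 ± 0.012 in the arrays labelled cKO (mean ± SD, n = 3 each). That is a 2.55-fold difference (log2 difference 1.35, SE 0.10), and Rspo2 had the third smallest p of all genes, with a limma adjusted p of 0.0496. It was thus the 1 member called, where 0.00917% of all genes were called higher and 0% lower.

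**Figure D1:**
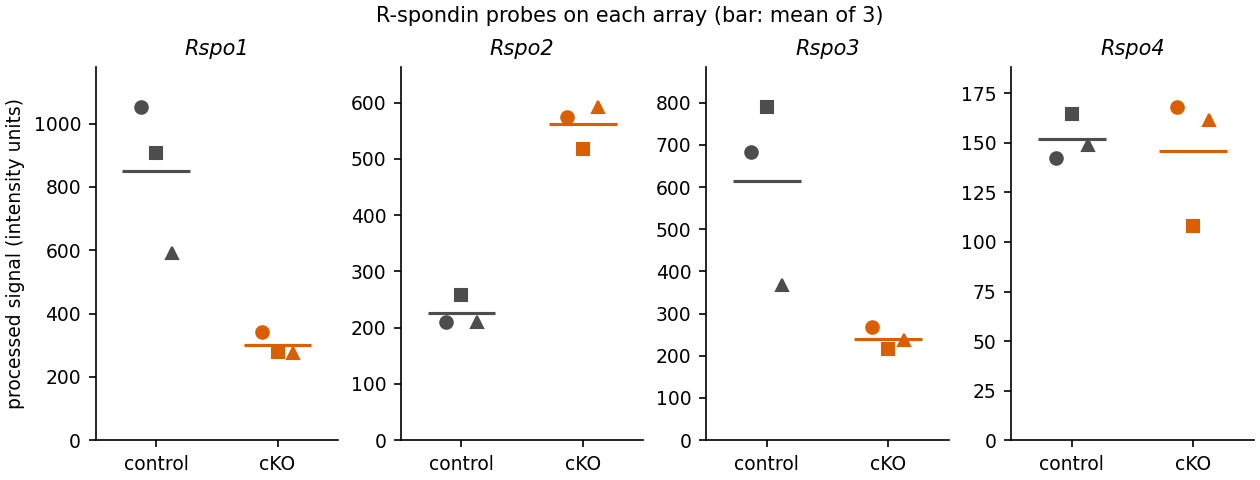
Processed signal in intensity units of the Rspo1, Rspo2, Rspo3 and Rspo4 probes on the 3 control arrays and the 3 arrays labelled cKO, with circles, squares and triangles for replicates 1, 2 and 3 and a bar at the mean of 3. Control and cKO points are apart for Rspo1, Rspo2 and Rspo3 and intermingle for Rspo4.

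Rspo1 was the member with the greatest difference. Its probe gave 1052, 908 and 592 units in control replicates 1, 2 and 3, and 343, 280 and 277 in the arrays labelled cKO. The groups did not overlap, and control replicate 3 was the nearest control to them. The log2 signal of Rspo1 was -0.15 ± 0.30 in control and -1.59 ± 0.19 in the arrays labelled cKO, which is 2.71-fold lower (log2 difference -1.44, SE 0.18, limma adjusted p = 0.079).

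Rspo3 was lower in the same arrays as Rspo1. Its signals were 683, 790 and 367 units in control replicates 1, 2 and 3, and 268, 216 and 237 in the arrays labelled cKO. The groups did not overlap here either, and control replicate 3 was again the lowest control. The log2 difference was -1.25 (SE 0.22, 2.38-fold lower), with a limma adjusted p of 0.18. Without control replicate 3 it was -1.50 and without control replicate 2 it was -1.07. The control SD was 0.45 for Rspo3 and 0.15 for Rspo2.

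Rspo4 gave 142, 165 and 149 units in control and 168, 108 and 161 in the arrays labelled cKO. The lowest and the highest reading were both in arrays labelled cKO, so no difference stood out from the spread (log2 difference -0.052, 95% interval -0.42 to 0.32).

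Differences between R-spondins within an array do not depend on scaling between arrays, and restate the values that chose the set. Rspo1 minus Rspo2, set to 0 at the control mean, was 0.44, -0.065 and -0.38 in control replicates 1, 2 and 3 and -2.62, -2.77 and -2.98 in the arrays labelled cKO, on the log2 scale. Rspo2 minus Rspo3 was -0.33, -0.24 and 0.56 in control and 2.47, 2.63 and 2.69 in the arrays labelled cKO. By contrast, Rspo1 minus Rspo3 overlapped between the groups. It was 0.12, -0.30 and 0.18 in control and -0.15, -0.13 and -0.28 in the arrays labelled cKO. These ratios show unequal change between members, not which member stayed level.

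The Lgr receptors showed no difference of that size. Lgr4, the broadly expressed R-spondin receptor, gave 118, 101 and 81.8 units in control and 114, 92.4 and 96.9 in the arrays labelled cKO (log2 difference 0.055, 95% interval -0.24 to 0.35). The readings of the groups interleaved. Lgr5, a receptor known as a marker of stem cells in several epithelia, gave 109, 150 and 86.7 units in control and 57.2, 93.3 and 85 in the arrays labelled cKO. The groups overlapped through cKO replicate 2, which lay above control replicate 3. The Lgr5 log2 difference was -0.51 with a 95% interval of -1.08 to 0.055. It was -0.29 without cKO replicate 1, -0.27 under normexp background correction and -0.84 with a term for Y-linked signal. It was -0.013 within slide row 1 and -0.78 within row 2, and its SD of 0.42 in the arrays labelled cKO was the largest of the 9 members.

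Lgr6, the third receptor, gave 75.6, 85.6 and 82 units in control and 80.7, 57.7 and 76.5 in the arrays labelled cKO (log2 difference -0.16, 95% interval -0.48 to 0.17). A further probe, described in the files as an Lgr6 transcript but named by a transcript identifier and so outside the set, was also well above background on all 6 arrays. It gave a log2 difference of 0.048 (SE 0.18, from a fit of every probe on its own), so neither probe separated the groups. It was picked with its values known.

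The groups overlapped for both ligases as well. Znrf3 gave 91.3, 89.5 and 87.4 units in control and 98.9, 82.7 and 95.8 in the arrays labelled cKO, and its interval was the narrowest of the 9 members (log2 difference 0.078, 95% interval -0.16 to 0.31). Rnf43 gave 338, 286 and 246 units in control and 232, 253 and 327 in the arrays labelled cKO (log2 difference -0.070, 95% interval -0.40 to 0.26). For both ligases and for Lgr4, Lgr6 and Rspo4, these intervals leave out a change as large as that of Rspo1, Rspo2 or Rspo3.

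**Figure D2:**
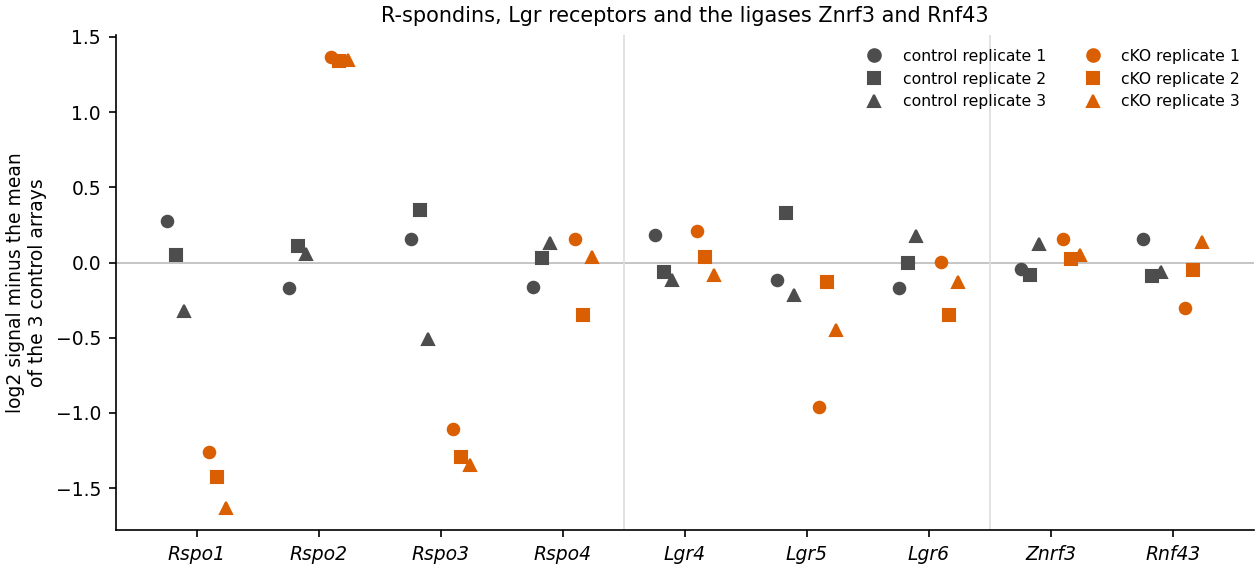
Log2 signal of each of the 9 members on each array, minus the mean of the 3 control arrays, with control in grey and cKO in orange and marker shapes for replicates 1, 2 and 3. Rspo2 lies near 1.35 and Rspo1 and Rspo3 between -1.63 and -1.11 in the arrays labelled cKO, while the other 6 members overlap with control.

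In all, the groups did not overlap for 1 member that was higher and 2 that were lower, against 6.98% and 6.19% of all genes tested. By an unadjusted p under 0.05 the counts were the same, 1 higher and 2 lower, against 3.12% and 4.37% of all genes. Since the set was selected on this contrast, nothing is read from these shares.

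Slide row and slide column could each be held constant for part of the arrays, though not both together. Control replicate 1 shared slide row 1 with cKO replicate 2. In row 2, control replicate 2 lay beside cKO replicate 3. The log2 difference of Rspo2 was 1.51 within row 1 and 1.23 within row 2. For Rspo1 it was -1.70 and -1.68, and for Rspo3 -1.45 and -1.70. Each is 1 array against 1, and in both rows the arrays also lay in different slide columns. Control replicates 1, 2 and 3 and cKO replicate 1 lay in column 1, and cKO replicates 2 and 3 in column 2. Column thus largely followed group, and within these rows the 2 cannot be told apart. Within column 1, cKO replicate 1 can be set against the mean of the 3 controls. Its log2 difference was 1.36 for Rspo2, -1.26 for Rspo1 and -1.11 for Rspo3, again from 1 array labelled cKO. Among the 4 arrays without Y-linked signal, the log2 difference was 1.24 for Rspo2, -1.49 for Rspo1 and -1.60 for Rspo3, with 1 control array left. The adjusted p of Rspo2 was then 0.34. It was 0.41 with a term for Y-linked signal and 0.051 with a term for slide row.

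The rest of the pathway was compared through 6 lists, none of which holds a member. They were Wnt target genes, Wnt receptors, Wnt ligands, cytoplasmic and nuclear components, secreted antagonists with their Kremen receptors, and other binding partners of R-spondins or Lgr4. Of 98 listed genes 96 were tested, and 0 were called by limma at an adjusted p under 0.05. At an unadjusted p under 0.05, 7.29% were higher and 5.21% lower (7 and 5 genes), and 84 were neither, beside 3.12% and 4.37% of all genes. The groups did not overlap for 9 higher and 8 lower genes, which is 9.38% and 8.33%, beside 6.98% and 6.19% of all genes. The median log2 difference of the 96 genes was 0.065, against 0.019 over all genes.

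Target genes, whose transcripts Wnt signalling raises in many tissues, split evenly, with 8 of 16 higher and 8 lower by sign and a median of -0.010. Dkk4, a secreted antagonist induced by Wnt, had a log2 difference of -0.43 (SE 0.11, adjusted p = 0.33). Myc, a growth regulator, read 0.36, Apcdd1, a membrane inhibitor of Wnt, -0.24 and the transcription factor Tcf7 -0.17, all with an adjusted p of at least 0.635. Axin2, the feedback inhibitor most often used as a readout of the pathway, lay at 0.086 (SE 0.094) and its other probe at 0.070. Axin2 was outside the rule for naming genes and was picked with its values known.

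Receptors had a median of 0.073 over 15 genes. The list holds the Frizzled receptors, which Znrf3 and Rnf43 remove, and also Lrp5, Lrp6, Ror1, Ror2 and Ryk. The smallest p among them belonged to the Wnt5a receptor Ror2 (log2 difference 0.60, SE 0.25), to Fzd1 (0.29), to Fzd2 (-0.35, and -0.29 by its other probe) and to Ror1 (0.43). Of 19 Wnt ligands, 17 were tested and Wnt2 and Wnt3a were too dim. The ligand median was 0.12. Wnt10a had the greatest log2 difference, 1.39 (SE 0.46, adjusted p = 0.51), but control replicate 1, at -1.15 relative to the array's 75th percentile, lay near the arrays labelled cKO (-1.03 to -0.84) and far from control replicates 2 and 3 (-2.88 and -2.98). Wnt3 read 0.49, Wnt8a 0.19 and Wnt16 0.20 (0.018 by its other probe).

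Cytoplasmic and nuclear components held the pathway gene nearest to a call. Dact1, a Dishevelled-binding regulator, read 0.057, 0.075 and -0.014 in control replicates 1, 2 and 3 and 0.96, 1.02 and 1.18 in the arrays labelled cKO. It was 2.02-fold higher (log2 difference 1.01, SE 0.096, limma adjusted p = 0.058), its groups did not overlap, and its other probe gave 0.89. Its relative Dact2 went the other way, at -0.86 (SE 0.26, adjusted p = 0.43). Tcf7l1, a transcriptional repressor of the pathway, lay at -0.51 and Pygo2, a nuclear cofactor of beta-catenin, at 0.25. The list's median over 23 genes was 0.066. The probes of Tcf7l2, a nuclear effector also in this list, disagreed: the brightest gave -0.0053 and the others -0.47 and -0.83.

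Frzb, a secreted Wnt antagonist also known as Sfrp3, had the greatest difference among 12 antagonists and Kremen receptors. It read -2.29, -2.27 and -2.24 in control and -2.96, -3.89 and -4.15 in the arrays labelled cKO. This is 2.63-fold lower (log2 difference -1.40, SE 0.29, adjusted p = 0.25) without overlap, and the arrays labelled cKO spread more than the controls. Kremen1, a Dkk receptor, lay at -0.30 (-0.050 by its other probe), and the antagonists Sfrp2 and Sostdc1 at 0.36 and 0.30. Among 13 binding partners, which included syndecans and glypicans, the heparan sulfate proteoglycan Sdc3 read 0.27, Ndp, which encodes the Lgr4 and Fzd4 ligand norrin, -0.28, Sdc2 0.17 and the scaffold gene Iqgap1 -0.11. The median of the partners was -0.012.

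**Figure D3:**
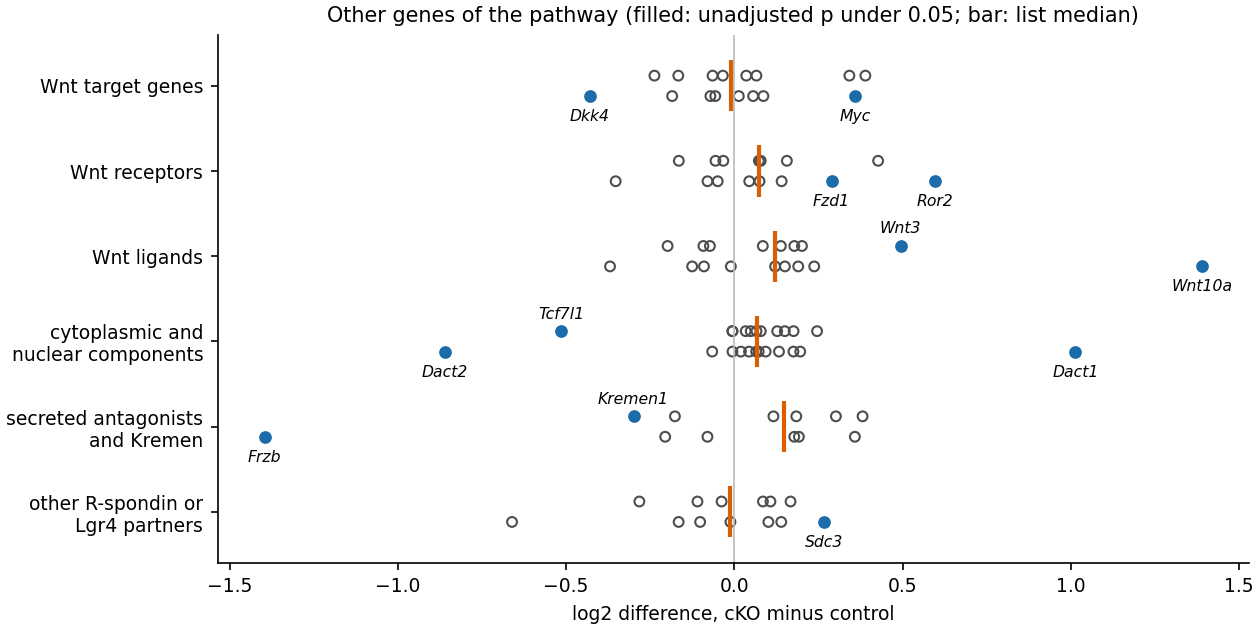
Log2 difference, cKO minus control, of the 96 tested genes of 6 pathway lists, 1 point per gene, filled where the unadjusted p was under 0.05, with an orange bar at the list's median. The medians lie between -0.012 and 0.15, and Wnt10a, Dact1 and Frzb are the 3 genes more than 1 from 0.

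Marker lists of the cell types in the sample differed between the same arrays. In a bulk sample, fewer cells of a type and less RNA per cell cannot be told apart. Of 8 markers of layer 4, not counting Rspo1, 7 were lower by sign, and for 4 of them the groups did not overlap, beside 6.19% of all genes that were lower without overlap. Their mean relative to control was -0.59 to -0.35 in the arrays labelled cKO and -0.18 to 0.10 in control. Control replicate 3 was the lowest control, as for Rspo1 and Rspo3. This order was not particular to layer 4. Control replicate 3 was also lowest for the layer 5, cortical excitatory, astrocyte, oligodendrocyte-lineage, microglial, mural, endothelial and blood lists. The layer 4 genes with the smallest p were the potassium channel genes Kcnab3 (log2 difference -1.07) and Kcnh5 (-1.11) and the sodium channel gene Scnn1a (-0.59). Of 9 layer 5 markers, 5 were higher and 4 lower by sign. The groups did not overlap for 5 higher and 0 lower of them, beside 6.98% and 6.19% of all genes. The list's mean was 0.15 to 0.26 in the arrays labelled cKO against -0.22 to 0.14 in control. The smallest p belonged to Tcerg1l (1.09), Sulf2 (0.59) and Npr3 (0.53), while Qrfpr, also in this list, lay at -0.89.

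Astrocyte markers were lower for 12 of 12 genes (list mean -0.64 to -0.45 against -0.13 to 0.085 in control), led by Gfap at -1.15, Aqp4 at -0.46 and Ndrg2 at -0.42. The other Gfap probes gave -0.50 and -1.20. Oligodendrocyte-lineage markers were lower for 12 of 14 (-0.54 to -0.34 against -0.029 to 0.039), led by Cnp at -0.98. The 2 higher ones were Mbp (0.16, without overlap between the groups) and Mog (0.10). Microglial markers were lower for 12 of 12 (-0.90 to -0.30 against -0.075 to 0.045), led by Cx3cr1 at -0.82. Markers of vessel walls (mural cells) were lower for 7 of 7, led by Tagln at -0.39, and those of interneurons for 10 of 10, led by Gad2 at -0.38. An unadjusted p under 0.05 was reached by 12 astrocyte, 7 oligodendrocyte, 10 microglial, 3 mural and 2 interneuron markers, all lower, beside 4.37% of all genes. Endothelial markers overlapped, with a list mean of -0.21 to 0.077 against -0.12 to 0.13 and 0 of 10 genes with an unadjusted p under 0.05, the smallest that of Ly6c1 (-0.34). Meningeal markers were lower for 8 of 8 by sign, with a median of -0.41, and 0 had an unadjusted p under 0.05. Their mean scattered from -1.14 to 0.27 in the arrays labelled cKO and from -0.31 to 0.25 in control. None of these markers was called over all genes, and their part in the R-spondin differences was not tested.

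Tissue next to S1 was checked in the same way. Choroid plexus markers, lower for 7 of 7 by sign, had a list mean of -0.44 to 0.010 against -0.12 to 0.090. Hippocampal markers, with 4 higher and 2 lower by sign, had a mean of -0.099 to 0.029 against -0.061 to 0.10. Of these, Zbtb20 lay at -0.64. Blood genes, higher for 3 of 3 by sign, had a mean of -0.72 to 0.93 against -0.45 to 0.43. Of 5 thalamic markers 4 were tested, with a mean of -0.23 to -0.039 against -0.092 to 0.065. All 4 were lower by sign, with Slc17a6 at -0.35, and Gbx2 was well above background on 1 array. The part of these lists was not tested either.

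The genes whose pattern was nearest to Rspo1 and Rspo2 were found by the root mean square difference over the 6 arrays, each gene relative to its own control mean, among 18530 named genes. Points of this measure share arrays and scaling, and nearness says nothing of a shared function. Nearest to Rspo1 were the phospholipase gene Plb1 (0.13), the phosphodiesterase gene Pde8b (0.18), Dcdc2a (0.20), the growth factor gene Bmp2 (0.21) and Cadps2 (0.22), a regulator of vesicle release. Rspo3 itself lay 0.21 from Rspo1, within the range of these 5 genes. Their log2 differences ran from -1.67 for Bmp2 to -1.16 for Cadps2. The match of Plb1, Pde8b and Dcdc2a rests on their brightest probe, since other probes gave 0.14 and 0.21 for Plb1, -0.38 for Pde8b and -0.40 for Dcdc2a.

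Nearest to Rspo2 were the growth factor gene Vegfd (0.12), the tight junction gene Cldn1 (0.13), Ldb2 (0.14), which encodes a cofactor of LIM-domain proteins, Pdzrn4 (0.17) and the transcription factor gene Neurod1 (0.18). Their log2 differences ran from 1.16 for Neurod1 to 1.38 for Cldn1. Of the 5, Ldb2 was called (log2 difference 1.29, limma adjusted p = 0.042). The other probes of Pdzrn4 and Neurod1 gave 1.33 and 1.29.

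**Figure D4:**
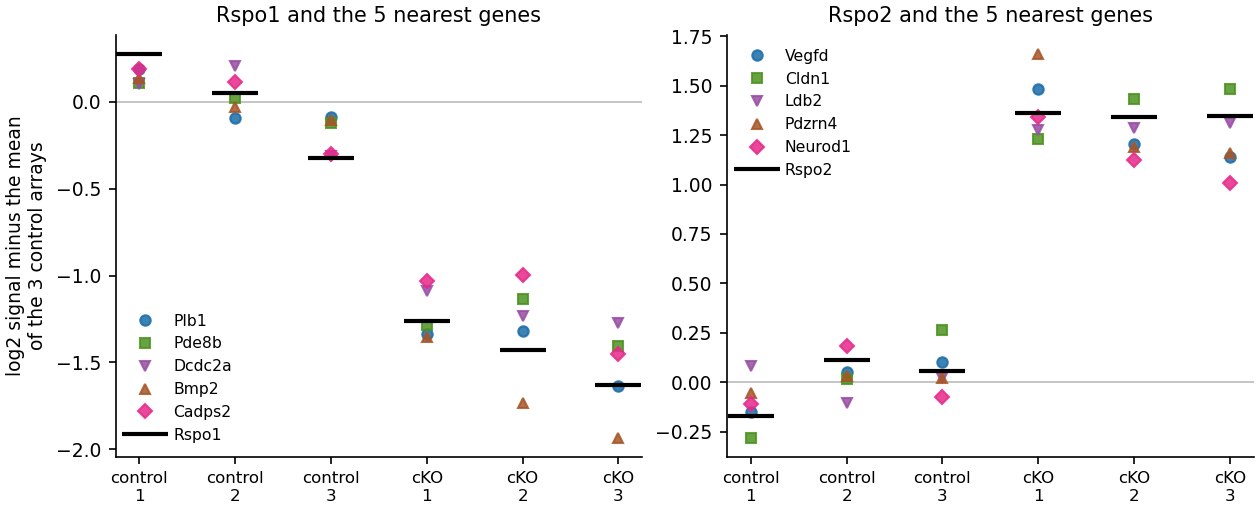
Log2 signal minus the mean of the 3 control arrays, by array, for Rspo1 (left) and Rspo2 (right, black bars) and the 5 genes nearest to each (coloured markers). On the arrays labelled cKO, Rspo1 lies between -1.63 and -1.26 and Rspo2 between 1.34 and 1.36.

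Promoter sequences were held for Rspo1, Rspo4, Lgr4, Lgr6 and Rnf43, the last with 2 starts, in a RefSeq table of GRCm38.p6 that spans 250 bases before to 50 after a start. The 6 windows were searched on both strands for TAATTA, the core that LIM-homeodomain factors bind, and for CTTTGA, the core of TCF and LEF sites. Neither was found in any of the 6, while 5.3% and 16% of the 32851 promoters in the table hold them. This says only that these letters are not in these windows. The Rspo1 window holds 69% G and C, against a median of 52.7% over all promoters.

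**Figure D5:**
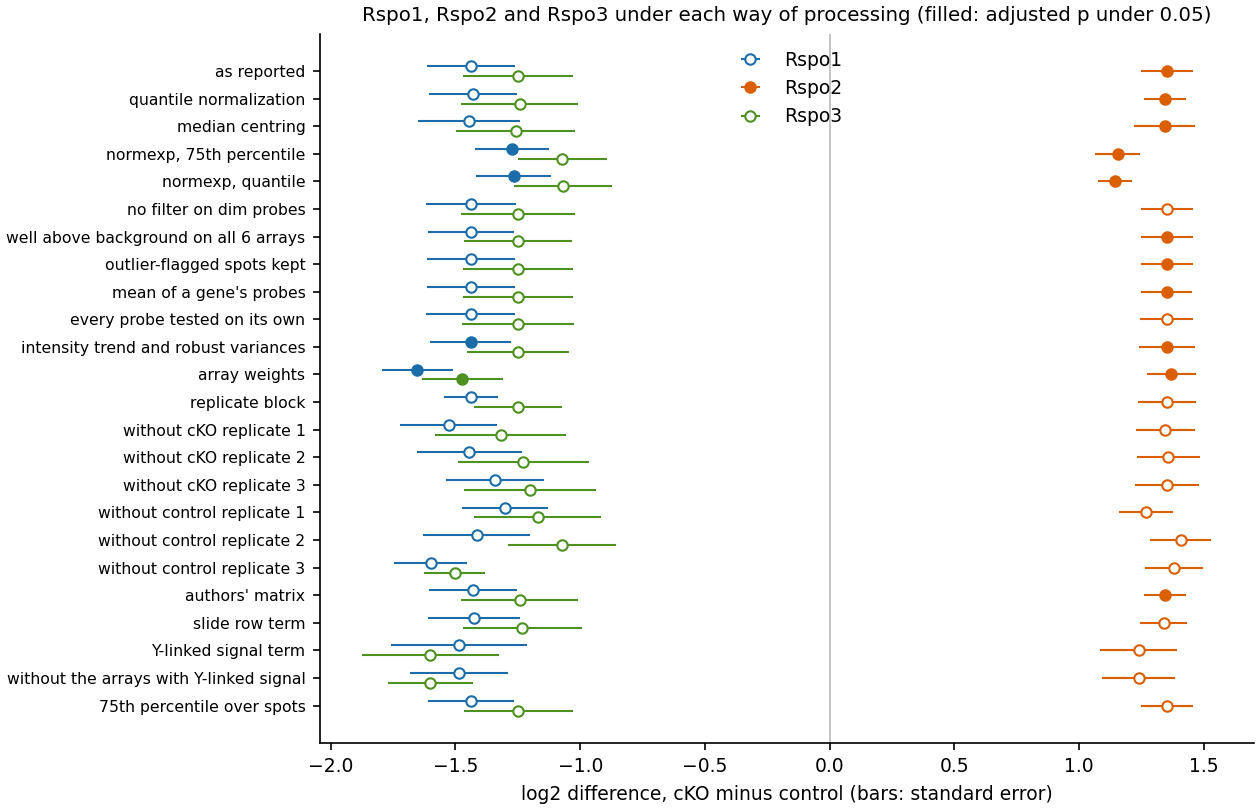
Log2 difference with its standard error for Rspo1, Rspo2 and Rspo3 as reported and under each of 23 alternatives, filled where the adjusted p was under 0.05. Rspo2 stays between 1.14 and 1.41, Rspo1 between -1.65 and -1.27 and Rspo3 between -1.60 and -1.07, while the fill changes.

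Every alternative kept the direction of Rspo1, Rspo2 and Rspo3. Because the groups did not overlap for these genes, left-out arrays, array weights, filters and variance models could not have turned the sign. The call of Rspo2 held in 10 of 23. It was lost without any 1 of the 6 arrays (adjusted p from 0.081 to 0.19) and when the 75th percentile was taken over spots in place of probes (0.056). Rspo1, not called as reported, passed in 4 of 23.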

How the data were processed

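The deposited scanner files hold intensities of 1-colour (Cy3) Agilent arrays made, per the file headers, with Feature Extraction 10.5.1.1: a processed signal, detrended and background-subtracted but not scaled between arrays, and the uncorrected mean signal and local background. Flags mark spots well above background. The authors' deposited matrix holds log2 values, and the sources used here do not give their processing. It lay within 0.00075 of quantile-normalized log2 signals minus each probe's median, for 95% of values, and its column medians ran from -0.0064 to 0.00645.

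Outlier spots were dropped, spots of a probe were averaged on the log2 scale, and each array's 75th percentile over probes was subtracted. A probe was tested if well above background on at least 3 of 6 arrays, and a gene took its brightest probe. Names came from the files and a RefSeq table (GRCm38.p6). limma 3.58.1 in R 4.3.3 (lmFit, eBayes, two-sided, Benjamini-Hochberg over 32702 genes, threshold 0.05) compared the groups, after the fit was tested on simulated data. Members and gene lists were chosen with earlier results of these data known. The genes named are every member, Lhx2, up to 4 genes of each pathway list and up to 3 of each cell type list by smallest p, and the 5 genes nearest to Rspo1 and to Rspo2. Others named were chosen after their values were seen. Alternatives covered scaling, background correction, filters, probes, variance model, weights, the replicate number, single arrays, slide row, Y-linked signal and the authors' matrix. The percentile over spots was added after seeing the data. A list of striatal markers is not reported here.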

Additional observations from a re-analysis of the deposited data

How the results depend on the processing

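Averaging a gene's probes, keeping spots marked as outliers, the 4 arrays without Y-linked signal and the percentile over spots left between 2 and 3 genes called by limma, near the 3 reported. Quantile normalization and the authors' matrix called 12 each, median centring 24, normexp 89 or, with quantile normalization, 75, a filter on all 6 arrays 13, single probes 1, an intensity trend with robust variances 110 and array weights 218. No filter on dim probes, the replicate block, the slide row term and the Y-linked signal term called 0, with 2866, 2235, 3273 and 1097 genes at an unadjusted p under 0.05. Without 1 array each, the counts ran from 0 to 4 (0 without cKO replicate 1 or 3, with 2545 and 2037 genes at an unadjusted p under 0.05). The call of Rspo2 ended with no filter, single probes, the replicate block or the percentile over spots (log2 difference 1.35 each), with the slide row term (1.34), and with the Y-linked signal term or without those arrays (1.24 each). With an array left out its log2 difference was 1.27 to 1.41. Rspo1 passed with normexp under either scaling (-1.27 each), with the intensity trend (-1.44) and with array weights (-1.65). Array weights, which gave control replicate 3 the lowest weight, 0.43, turned the sign of Rspo4 (0.033), Lgr4 (-0.063) and Rnf43 (0.021) and moved the binding partners' median to 0.078. It also brought Rspo3 past the threshold (-1.47). Rnf43 also turned with the Y-linked signal term and without those arrays (0.022 each). With an array left out, log2 differences ran from -0.16 to 0.10 for Rspo4, -0.023 to 0.15 for Lgr4, -0.17 to 0.045 for Rnf43, -0.71 to -0.29 for Lgr5, -0.24 to -0.063 for Lgr6 and 0.035 to 0.14 for Znrf3, and medians from -0.12 to 0.044 for target genes, -0.074 to 0.19 for ligands and -0.0035 to 0.17 for antagonists. Some alternatives used fewer arrays or tested more genes or probes, and the cause of these changes was not tested. Same-numbered arrays deviated from their group means with correlations of -0.20, 0.08 and 0.17, so the replicate numbers were not taken to pair the samples. Precision is limited by the number of arrays, and the dimmest member, Lgr6, lay at 3.7 to 4.8 times its local background.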
